A study of Mus musculus with 6 samples.

Results

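The 10 genes described here are *Nfe2l2*, which encodes the transcription factor NRF2, its inhibitor gene *Keap1*, and 8 antioxidant genes commonly listed as NRF2 targets (*Slc7a11*, *Gclc*, *Gclm*, *Gsr*, *Txnrd1*, *Prdx1*, *Srxn1* and *Nqo1*). They were chosen by symbol, and all 10 were found among the 23204 genes of the deposited count table. Their transcripts were counted by RNA-seq in osteoclasts, the bone-resorbing cells of the monocyte lineage, grown from C57BL/6 mouse bone marrow. Adherent marrow cells taken after 2 days in M-CSF were cultured with M-CSF and RANKL, the cytokine that drives osteoclast formation. There were 3 libraries labelled Tet2Rank–/–; Tet3aRank+/– and 3 labelled wild type, and both groups received the same culture. The first label is read here as loss of both copies of *Tet2* and of one copy of *Tet3*, which encode enzymes that oxidise methylated cytosine. Rank, and the a of Tet3a, are not explained in the labels, which also leave out the cells and the stage in which the genes were lost. They give no age and no number of animals. The leading number of each column name is used here to name the library: 2, 3 and 5 are labelled mutant, and 1, 4 and 6 are wild type.

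NRF2 is held in the cytoplasm by KEAP1, which hands it to a ubiquitin ligase for destruction. Oxidants and electrophiles modify KEAP1, so that NRF2 accumulates, enters the nucleus with a small MAF partner and binds antioxidant response elements near genes of glutathione and thioredoxin metabolism. Much of this control acts on the protein, which was not measured here. In osteoclast precursors RANKL signalling is known to use reactive oxygen species, and NRF2 activity is known to restrain osteoclast formation.

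Total counts lay between 9519978 and 14267135 in the libraries labelled mutant and between 8794973 and 12845879 in wild-type libraries. *Tet2* was at 58.2, 45.5 and 52.3 CPM (counts scaled to a common library size by TMM) in libraries 2, 3 and 5 labelled mutant, against 71.7, 80.9 and 79.3 CPM in wild-type libraries 1, 4 and 6. *Tet3* was not lower, at 163, 141 and 156 CPM against 145, 121 and 127 CPM in wild-type libraries, so the genotype is written as labelled. Columns of libraries 5 and 6 carry a second number in their names and the others do not. This naming form holds both genotypes, and the leading principal component of log CPM (68.1% of the variance) set libraries 5 and 6 apart from libraries 2, 3 and 4, with library 1 between them. Each named gene's log2 fold change over all libraries is therefore given with its value or adjusted p with the naming form as a term. *Tet2* had a log2 fold change of -0.57, mutant over wild type (edgeR adjusted p = 0.0924, and 0.0400 with the term). That of *Tet3* was 0.23 (edgeR adjusted p = 0.360, and 0.302 with the term). The 12 osteoclast markers summed to 3025 to 12576 CPM in the libraries labelled mutant and to 15354 to 40178 CPM in wild-type libraries. The 12 macrophage markers summed to 5541 to 5988 CPM and to 1907 to 3459 CPM. Neither sum overlapped between the genotypes, and all markers on both lists were detected. Of the 12 osteoclast markers, 8 had every library labelled mutant below every wild-type library, beside 16.9% of all genes. Of the 12 macrophage markers, 8 had them all above, beside 9.91% of all genes. At an adjusted p under 0.05, edgeR without the naming form called 0 markers of either list. With the naming form as a term 9 osteoclast markers fell and 6 macrophage markers rose, beside 5.6% and 3.08% of all genes. DESeq2 called 4 osteoclast markers lower and 9 macrophage markers higher, beside 5.48% and 4.84% of all genes. Sums of neutrophil markers (478 to 1424 against 291 to 951 CPM), stromal markers (1059 to 4294 against 1165 to 3075 CPM), dendritic cell markers (1570 to 5861 against 764 to 1932 CPM) and lymphocyte markers (140 to 185 against 40.6 to 162 CPM) overlapped. With the term, 4 of 9 neutrophil and 4 of 8 dendritic cell markers tested rose and 0 fell, beside 3.08% and 5.6% of all genes. Of the stromal and lymphocyte markers 0 rose and 0 fell with it. Without the term, edgeR called 0 neutrophil and 0 dendritic cell markers, and so did DESeq2. In these bulk libraries, fewer cells of a type and less RNA per cell cannot be told apart, and the part of cell makeup in the differences below was not tested.

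None of the 10 genes passed the test over all genes, although 9 of them had a log2 fold change above 0 in the libraries labelled mutant. In edgeR's quasi-likelihood test with Benjamini-Hochberg adjustment, 0 of the 10 had an adjusted p under 0.05, beside 0.0499% of all 14040 tested genes higher and 0.0214% lower in the libraries labelled mutant. Their adjusted p-values lay between 0.143 and 0.869. At an unadjusted p under 0.05 there were 4 (*Prdx1*, *Gclc*, *Nfe2l2* and *Keap1*), all with a log2 fold change above 0, beside 7.19% of all genes higher and 12.4% lower at that level. DESeq2 called 1, *Prdx1*, as higher, beside 4.84% of genes higher and 5.48% lower. With the naming form as a term of the edgeR fit, 0 passed (adjusted p between 0.0655 and 0.775), and over all genes 3.08% passed as higher and 5.6% as lower. Of the 10, 3 had an unadjusted p under 0.05 with the term, and the share of all genes at that level was not counted. The median log2 fold change of the 10 was 0.25, against -0.03 for all genes tested, and 46.8% of all genes had a log2 fold change above 0. Libraries did not overlap between the genotypes for 3 of the 10 (*Prdx1*, *Keap1* and *Gclc*), all with the libraries labelled mutant on top, as for 9.91% of all genes, while 16.9% separated the other way.

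**Figure D1:**
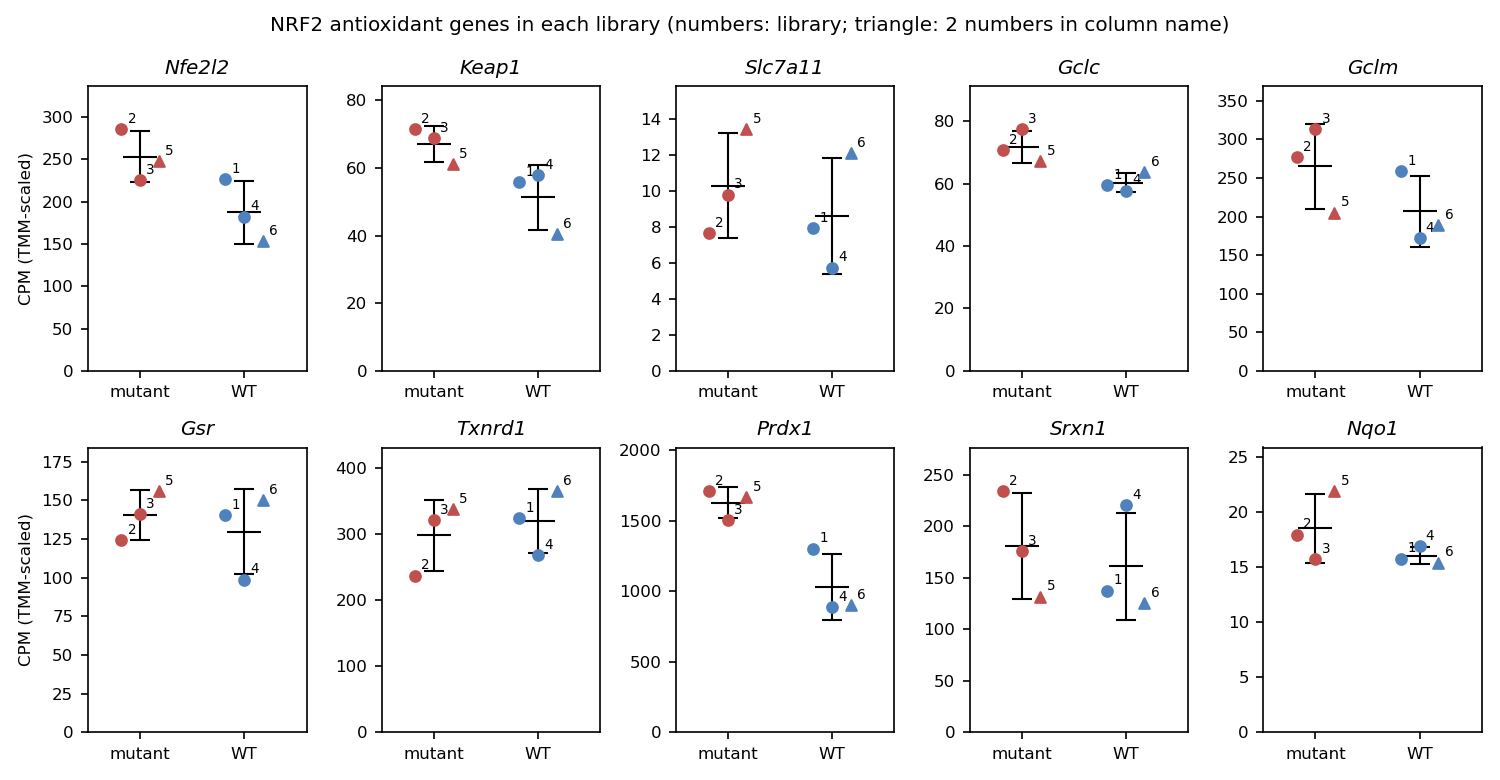
Level of each of the 10 genes in every library, in TMM-scaled CPM on a linear axis that starts at 0, with libraries labelled mutant left of wild-type (WT) libraries. Points carry the library number, triangles are libraries 5 and 6, and the black bar and whiskers are the mean and SD of 3 libraries; *Prdx1*, *Keap1* and *Gclc* do not overlap between the genotypes, and the other 7 do.

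The regulators come first. *Nfe2l2* (ENSMUSG00000015839, chromosome 2, 75675513 to 75704641, minus strand, mm10) was at 285, 226 and 248 CPM in libraries 2, 3 and 5 labelled mutant, against 227, 183 and 154 CPM in wild-type libraries 1, 4 and 6. Library 3 lay just under library 1, and the groups otherwise did not cross. The log2 fold change was 0.43 (SE 0.176, edgeR adjusted p = 0.248), and 0.44 with an adjusted p of 0.133 with the naming form as a term. *Keap1* (ENSMUSG00000003308, chromosome 9, 21229730 to 21239361, minus strand) was at 71.3, 68.8 and 61.1 CPM in the libraries labelled mutant, against 55.9, 57.8 and 40.3 CPM in wild-type libraries. Its groups did not overlap, and wild-type library 6 was the lowest of all. The log2 fold change was 0.39 (SE 0.159, edgeR adjusted p = 0.250), and 0.40 with an adjusted p of 0.0655 with the naming form as a term, the smallest of the 10 in that fit. Without wild-type library 6 the log2 fold change of *Keap1* was 0.25. The gene for the factor and the gene for its inhibitor thus had fold changes of like size. Per kilobase of merged exons, *Nfe2l2* stood 4.95, 4.06 and 5.01 times above *Keap1* in libraries 2, 3 and 5, against 5.03, 3.91 and 4.71 times in wild-type libraries 1, 4 and 6. This ratio averaged 4.67 ± 0.530 in the libraries labelled mutant and 4.55 ± 0.577 in wild-type libraries (SD, n = 3 each), with overlapping groups.

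Of the genes of the thioredoxin and peroxiredoxin system, *Prdx1* had the largest difference of the 10. It encodes peroxiredoxin 1, a thiol peroxidase that reduces hydrogen peroxide and is itself restored by thioredoxin. *Prdx1* (ENSMUSG00000028691, chromosome 4, 116685544 to 116700822, plus strand) was at 1713, 1507 and 1671 CPM in libraries 2, 3 and 5 labelled mutant, against 1304, 890.0 and 901 CPM in wild-type libraries 1, 4 and 6. Every library labelled mutant lay above every wild-type library, and library 1 was well above the other two of its group. The mean was 1630 ± 109 CPM against 1032 ± 236 CPM (SD, n = 3 each), or 158% of wild type. The log2 fold change was 0.66 (SE 0.193, edgeR adjusted p = 0.143), and 0.67 with an adjusted p of 0.0777 with the naming form as a term. DESeq2 gave 0.69 with an adjusted p of 0.00491, so the call rests on the tool. Leaving out each library in turn, the edgeR value ranged from 0.59 to 0.86.

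*Srxn1* and *Txnrd1*, which act on the same cycle, had no such pattern. *Srxn1* (ENSMUSG00000032802, chromosome 2, 152105516 to 152111376, plus strand) encodes sulfiredoxin, which repairs overoxidised peroxiredoxins. It was at 234, 176 and 132 CPM in the libraries labelled mutant, against 138, 221 and 125 CPM in wild-type libraries, with a fitted log2 difference of 0.16 (SE 0.291, adjusted p = 0.855 in edgeR, and 0.15 with an adjusted p of 0.718 with the term). Libraries 2 and 4, of opposite genotypes, were the highest, and libraries 5 and 6 the lowest. *Txnrd1* (ENSMUSG00000020250, chromosome 10, 82833951 to 82897712, plus strand) encodes the cytosolic thioredoxin reductase, which uses NADPH to restore thioredoxin. It was at 237, 320 and 337 CPM in the libraries labelled mutant, against 324, 268 and 365 CPM in wild-type libraries, with a fitted log2 difference of -0.10 (SE 0.185, adjusted p = 0.869 in edgeR, and -0.10 with an adjusted p of 0.775 with the term). It was the only gene of the 10 below 0, with library 2 lowest and library 6 highest. Without library 2 its log2 fold change was 0.08 and that of *Srxn1* was -0.04, so neither direction holds without that library. Per kilobase, *Prdx1* stood 16.8, 10.96 and 11.5 times above *Txnrd1* in libraries 2, 3 and 5, against 9.37, 7.72 and 5.75 times in wild-type libraries 1, 4 and 6, with no overlap. *Prdx1* by itself did not overlap either. It stood 6.77, 7.94 and 11.7 times above *Srxn1* in the libraries labelled mutant, against 8.77, 3.74 and 6.67 times in wild-type libraries, and these groups overlapped.

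Glutathione supply begins with cystine import and ends with glutathione reduction. *Slc7a11* (ENSMUSG00000027737, chromosome 3, 49892526 to 50443614, minus strand) encodes the cystine importer xCT and was the scarcest of the 10, with 68 to 180 counts per library. It was at 7.63, 9.78 and 13.4 CPM in libraries 2, 3 and 5 labelled mutant, against 7.93, 5.73 and 12.1 CPM in wild-type libraries 1, 4 and 6. Libraries 5 and 6 were the highest of their groups, and the groups overlapped. Its log2 fold change was 0.26 (SE 0.357, edgeR adjusted p = 0.792, and 0.28 with an adjusted p of 0.545 with the term), and ranged from 0.01 to 0.61 as each library was left out. The value was 0.01 without library 5, 0.06 without library 4, 0.47 without library 2 and 0.61 without library 6.

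*Gclc* and *Gclm* encode the catalytic and the modifier subunit of glutamate-cysteine ligase, the rate-limiting enzyme of glutathione synthesis. *Gclc* (ENSMUSG00000032350, chromosome 9, 77754535 to 77794485, plus strand) was at 70.8, 77.3 and 67.1 CPM in the libraries labelled mutant, against 59.6, 57.8 and 63.7 CPM in wild-type libraries. The groups did not overlap, and wild-type library 6 came closest to the libraries labelled mutant. The log2 fold change of *Gclc* was 0.25 (SE 0.0968, edgeR adjusted p = 0.225), and 0.25 with an adjusted p of 0.201 with the term. *Gclm* (ENSMUSG00000028124, chromosome 3, 122245557 to 122270732, plus strand) was at 277, 313 and 205 CPM in the libraries labelled mutant, against 259, 172 and 189 CPM in wild-type libraries. Library 5 lay under library 1, so the groups overlapped. For *Gclm* it was 0.36 (SE 0.221, edgeR adjusted p = 0.451), and 0.34 with an adjusted p of 0.301 with the term. It ranged from 0.22 without library 3 to 0.55 without library 1. Per kilobase, *Gclm* stood at 2.197 ± 0.322 times the level of *Gclc* in the libraries labelled mutant and 2.05 ± 0.476 times in wild-type libraries (SD, n = 3 each), with overlapping groups.

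*Gsr* (ENSMUSG00000031584, chromosome 8, 33652523 to 33698163, plus strand) encodes glutathione reductase, which returns oxidised glutathione to its reduced form. It was at 124, 141 and 156 CPM in libraries 2, 3 and 5 labelled mutant, against 140.4, 98.8 and 149.99 CPM in wild-type libraries 1, 4 and 6. Library 4 alone lay low, and the groups overlapped. The difference on the log2 scale was 0.11 (SE 0.184, edgeR adjusted p = 0.834), 0.12 with an adjusted p of 0.711 with the term, and -0.02 without library 4. *Nqo1* (ENSMUSG00000003849, chromosome 8, 107388225 to 107403206, minus strand) encodes a quinone reductase and is a widely used readout of NRF2 activity. It was at 17.9, 15.7 and 21.9 CPM in the libraries labelled mutant, against 15.7, 16.9 and 15.4 CPM in wild-type libraries. Library 5 was the highest and the other libraries lay close together. Its log2 fold change was 0.21 (SE 0.167, edgeR adjusted p = 0.582, and 0.20 with an adjusted p of 0.545 with the term), and ranged from 0.07 to 0.31 as each library was left out, lowest without library 5.

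Within each naming form the same 9 genes lay above 0, as did 33.9% of all genes tested. Between libraries 2 and 3 labelled mutant and wild-type libraries 1 and 4 the median log2 ratio of the 10 was 0.31, against -0.04 for all genes. Between library 5 labelled mutant and wild-type library 6 it was 0.13, against 0.0003 for all genes, from 1 library a side. The order differed between the forms. *Prdx1* had the largest ratio in both, at 0.55 within libraries 1 to 4 and 0.89 between libraries 5 and 6. *Nfe2l2* (0.32 and 0.69), *Keap1* (0.30 and 0.60) and *Nqo1* (0.04 and 0.51) had larger ratios between libraries 5 and 6. *Gclm* (0.45 and 0.12), *Gclc* (0.34 and 0.08) and *Slc7a11* (0.35 and 0.15) had larger ratios within libraries 1 to 4. Whether the forms differ in these ratios was not tested.

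**Figure D2:**
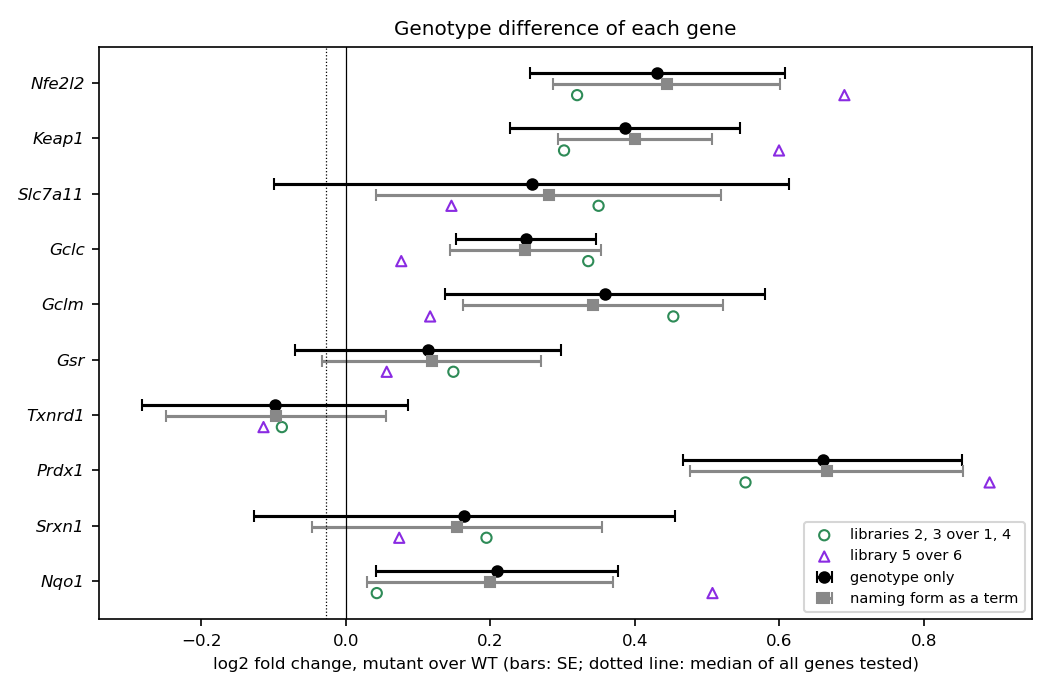
Log2 fold change of each gene, libraries labelled mutant over wild-type libraries, from the edgeR fit with genotype only (black, with SE) and with the naming form as a term (grey, with SE), above the log2 ratios within the naming forms (open symbols, no error). Of the 10 genes, 9 lie right of 0 in all 4, and *Txnrd1* lies left of it; the dotted line is the median of all genes tested, at -0.03.

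The 10 genes did not share a single profile over the libraries. With each gene's log2 CPM centred on its own mean, the median of the 10 was 0.19, 0.10 and 0.17 in libraries 2, 3 and 5 labelled mutant, and -0.02, -0.22 and -0.22 in wild-type libraries 1, 4 and 6. Library 2 held the highest value of 4 genes (*Nfe2l2*, *Keap1*, *Prdx1* and *Srxn1*) and the lowest of *Txnrd1*. Library 4 held the lowest value of 5 genes and library 6 the lowest of 4. *Slc7a11* spanned the widest range of log2 CPM, 1.23, and *Gclc* the narrowest, 0.42. Library 2 also had the lowest summed osteoclast markers and library 6 the highest.

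**Figure D3:**
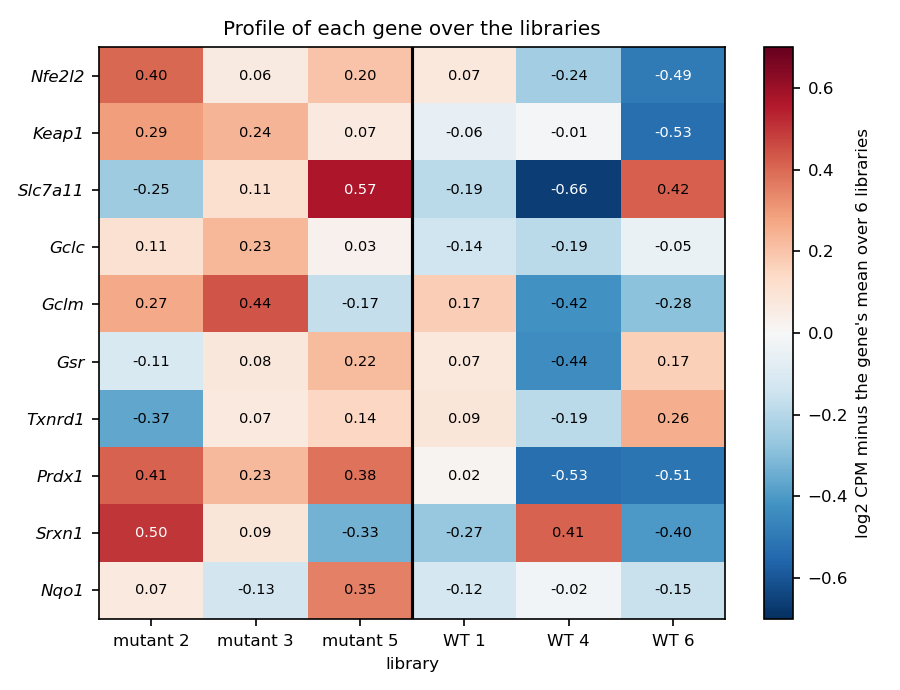
Log2 CPM of each gene minus its mean over the 6 libraries, printed in each cell, with libraries labelled mutant left of the vertical line and wild-type (WT) libraries right of it. *Nfe2l2*, *Keap1* and *Prdx1* share low values in library 6, where *Slc7a11*, *Gsr* and *Txnrd1* lie above their means.

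By root mean square distance between mean-centred log2(CPM + 1) profiles over the 6 libraries, the tested genes most like *Nfe2l2* were *Hsd17b11* (0.0352), which encodes a lipid droplet dehydrogenase, and *Adam17* (0.0447), which encodes a shedding metalloprotease. *Adam17*, for example, was at 302, 230 and 251 CPM in libraries 2, 3 and 5 labelled mutant, against 253, 193 and 161 CPM in wild-type libraries 1, 4 and 6. Among the other 9 genes, *Keap1* was closest to *Nfe2l2* (0.147, place 389 among all genes tested), followed by *Prdx1* (0.156, place 476), and *Slc7a11* was farthest (0.487, place 9041).

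Levels between genes were compared per kilobase of merged exons. In the libraries labelled mutant *Prdx1* was highest, at 536 ± 35.8 CPM per kilobase, against 339 ± 77.6 in wild-type libraries (SD, n = 3 each). *Nfe2l2* followed at 66.7 ± 7.93 in the libraries labelled mutant, then *Srxn1* at 64.1 ± 18.3, *Gsr* at 51.0 ± 5.80, *Gclm* at 42.1 ± 8.73 and *Txnrd1* at 42.1 ± 7.57. Neighbours among these 5 overlapped in the libraries labelled mutant. *Gclc* (19.1 ± 1.37) lay below them all, *Keap1* (14.3 ± 1.13) and *Nqo1* (11.9 ± 2.02) overlapped each other below it, and *Slc7a11* was last at 0.738 ± 0.209. In wild-type libraries the top, the 4 last places and the gaps around them were the same, while *Srxn1* (57.2 ± 18.4) stood ahead of *Nfe2l2* (49.5 ± 9.77), and *Txnrd1* (45.02 ± 6.83) ahead of *Gclm* (32.8 ± 7.36), again with overlap. Merged exons cover every annotated transcript, so the long annotation of *Slc7a11* (13922 bases) lowers its value.

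Antioxidant response elements were looked for in the RefSeq promoter windows of build GRCm38.p6, which run from 250 bases before to 50 bases after a gene's start. The letters TGACNNNGC, on either strand, were found in 12.4% of all 32851 windows and in 5 of the 10 windows that matched 8 of the genes by symbol. Counted by gene, 5 of these 8 had a match in a window, and 17.0% of the tested genes with a window did. *Gclc* and *Gsr* were not matched. The matches of *Prdx1*, *Gclm*, *Nfe2l2* and one of 3 *Txnrd1* windows lay before the start. They are shown with up to 26 bases on each side because these genes span the largest and the smallest differences of the 10. Sequences are given 5′ to 3′ on the gene's strand, with the match in capitals (GCNNNGTCA where it lies on the opposite strand):
Prdx1, chr4:116685440-116685500, plus strand: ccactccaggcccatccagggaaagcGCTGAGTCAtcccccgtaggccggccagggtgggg
Gclm, chr3:122245397-122245457, plus strand: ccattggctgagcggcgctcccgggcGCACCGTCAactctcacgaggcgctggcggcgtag
Txnrd1, chr10:82859088-82859148, plus strand: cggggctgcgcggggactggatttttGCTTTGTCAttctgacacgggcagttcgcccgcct
Nfe2l2, chr2:75704869-75704913, minus strand: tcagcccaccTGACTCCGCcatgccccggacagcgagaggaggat
The match of *Prdx1* began 133 bases before the start, that of *Gclm* 134, that of *Txnrd1* 92 and that of *Nfe2l2* 240. The *Prdx1* match also holds TGANTCA, the letters of an AP-1 site, which stood in 7.81% of all windows and in 2 of the 10 windows of these genes. That of *Srxn1* began 29 bases into the transcript. The windows of *Keap1*, *Slc7a11* and *Nqo1* held no match, and sequence outside the windows was not searched. A match describes the letters only, and neither binding nor DNA methylation was analysed here. Of genes whose groups did not overlap, *Prdx1* had a match and *Keap1* had none. *Txnrd1* had a match too, and its log2 fold change was below 0 but above 0 without library 2 or library 6. Whether matches go with the differences was not tested.

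The wider NRF2 pathway was read from further lists. Of 25 other textbook NRF2 targets tested, 20 had a log2 fold change above 0, with a median of 0.55 against -0.03 for all genes. In edgeR 0 passed over all genes, while 12 had an unadjusted p under 0.05, all with a log2 fold change above 0 (7.19% of all genes were higher at that level), and DESeq2 called 11 as higher (4.84% of all genes). Libraries did not overlap for 11 of the 25, all with the libraries labelled mutant on top, beside 9.91% of all genes. With the naming form as a term 7 rose and 0 fell, beside 3.08% of all genes that rose and 5.6% that fell. These were *Osgin1*, *Gstm1*, *Slc48a1* and *Hmox1*, and *G6pdx*, *Mgst1* and *Cbr3*, of which the last 3 were picked after their values were seen. The macrophage marker sum, given above, was higher in every library labelled mutant, and its part in this was not tested.

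*Hmox1*, which encodes the haem-degrading enzyme haem oxygenase 1, was at 872, 1120 and 777 CPM in libraries 2, 3 and 5 labelled mutant, against 485, 303 and 475 CPM in wild-type libraries 1, 4 and 6. Every library labelled mutant lay above every wild-type library, and the log2 fold change was 1.13 (SE 0.239, edgeR adjusted p = 0.0924, and 0.0368 with the naming form as a term). *Slc48a1*, which encodes a haem transporter of lysosomes, was at 535, 589 and 567 CPM in the libraries labelled mutant, against 299, 227 and 379 CPM in wild-type libraries (log2 fold change 0.90, edgeR adjusted p = 0.0962, and 0.0272 with the term). *Gstm1*, a glutathione transferase gene, was at 358, 300 and 305 CPM, against 209, 150 and 130 CPM in wild-type libraries (0.98, edgeR adjusted p = 0.0901, and 0.0232 with the term). *Osgin1*, an oxidative stress-induced growth inhibitor gene, was at 45.9, 36.7 and 53.3 CPM, against 24.7, 17.7 and 21.2 CPM in wild-type libraries (1.10, edgeR adjusted p = 0.0764, and 0.0220 with the term). These 4 had larger log2 fold changes than any of the 10 antioxidant genes. Except for *Hmox1*, they were named because they passed with the naming form as a term, so this comparison favours them.

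Of 11 partners and regulators of NRF2 tested, 9 had a log2 fold change below 0 with TMM scaling (median -0.11) and 7 with RLE scaling (median -0.08). Of the 11, 0 passed in edgeR or DESeq2. At an unadjusted p under 0.05 there was 1 in each direction, beside 7.19% of all genes higher and 12.4% lower, and 1 fell with the naming form as a term, beside 5.6% of all genes. These counts are near the shares of all genes. The gene that fell was *Nfe2l1*, which encodes a related factor known for driving proteasome genes. It was at 139, 141 and 159 CPM in libraries 2, 3 and 5 labelled mutant, against 175, 194 and 234.8 CPM in wild-type libraries 1, 4 and 6, with no overlap. Its log2 fold change was -0.46 (SE 0.142, edgeR adjusted p = 0.154, and 0.0463 with the term), opposite in sign to that of *Nfe2l2*. The 2 genes above 0, picked after their values were seen, were *Bach1* (0.48), which encodes a repressor at the same elements, and *Mafk* (0.49), which encodes a small MAF partner, and neither passed (edgeR adjusted p = 0.296 and 0.170, and 0.127 and 0.116 with the term).

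Among 19 other glutathione enzymes tested, 12 lay above 0 (median 0.19). In edgeR 0 passed, with an unadjusted p under 0.05 for 4 higher and 5 lower (7.19% and 12.4% of all genes), and DESeq2 called 3 higher and 2 lower (4.84% and 5.48% of all genes). With the naming form as a term 4 rose and 1 fell (3.08% and 5.6% of all genes). *Ggt5*, a gamma-glutamyl transferase gene, was at 28.0, 29.0 and 23.3 CPM in libraries 2, 3 and 5 labelled mutant, against 10.8, 11.6 and 6.49 CPM in wild-type libraries 1, 4 and 6. Its log2 fold change was 1.47 (SE 0.248, edgeR adjusted p = 0.0764, and 0.0135 with the term). *Oplah*, which encodes oxoprolinase of the glutathione cycle, had 0.90 (edgeR adjusted p = 0.0764, and 0.0274 with the term), and *Gpx3*, which encodes a secreted glutathione peroxidase, had 0.59 (0.214, and 0.0256 with the term). *Hagh*, which encodes a glyoxalase that releases glutathione, was at 55.9, 75.1 and 70.2 CPM in the libraries labelled mutant, against 115, 111 and 158 CPM in wild-type libraries. The log2 fold change of *Hagh* was -0.93 (SE 0.185, edgeR adjusted p = 0.0859, and 0.0213 with the term).

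Of 20 other thioredoxin, peroxiredoxin and superoxide enzymes, 12 lay above 0 (median 0.04). In edgeR 0 passed, with an unadjusted p under 0.05 for 3 higher and 3 lower (7.19% and 12.4% of all genes), and DESeq2 called 1 higher (4.84% of all genes). With the naming form as a term 2 rose and 1 fell (3.08% and 5.6% of all genes). The counts of lower genes and the DESeq2 count are near the shares of all genes. *Prdx5*, a peroxiredoxin gene like *Prdx1*, was at 196, 184 and 198 CPM in libraries 2, 3 and 5 labelled mutant, against 126, 115 and 147 CPM in wild-type libraries 1, 4 and 6 (log2 fold change 0.58, edgeR adjusted p = 0.0946, and 0.0279 with the term). *Sesn1*, a sestrin gene, had 0.72 (edgeR adjusted p = 0.223, and 0.0243 with the term). *Sod2*, which encodes the mitochondrial superoxide dismutase, was at 61.8, 89.8 and 95.8 CPM in the libraries labelled mutant, against 128, 110.4 and 164 CPM in wild-type libraries. On the log2 scale *Sod2* differed by -0.70 (edgeR adjusted p = 0.157, and 0.0442 with the term).

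Cystine import is also under control of the amino acid response factor ATF4. Of 17 genes of that response tested, 9 lay above 0 (median 0.005, and 8 with a median of -0.01 with the naming form as a term), and 0 passed in edgeR with or without the naming form as a term. None had an unadjusted p under 0.05 as higher, 3 did as lower (12.4% of all genes), and DESeq2 called 1 lower (5.48% of all genes), which are near those shares. *Atf4* was at 141, 193 and 175 CPM in libraries 2, 3 and 5 labelled mutant, against 208, 208 and 282 CPM in wild-type libraries 1, 4 and 6 (log2 fold change -0.46, edgeR adjusted p = 0.238, and -0.44 with an adjusted p of 0.131 with the term). *Slc3a2*, which encodes the chain that pairs with xCT, was at 215, 211 and 247 CPM, against 176, 133 and 226 CPM in wild-type libraries (0.33, edgeR adjusted p = 0.451, and 0.35 with an adjusted p of 0.194 with the term).

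Of the NADPH oxidase, a source of superoxide in phagocytes, 8 of 14 listed genes were tested, of which 5 lay above 0 (median 0.22). In edgeR 0 passed, with an unadjusted p under 0.05 for 1 higher and 2 lower (7.19% and 12.4% of all genes), and DESeq2 called the same numbers (4.84% and 5.48% of all genes). With the naming form as a term 2 fell and 0 rose (5.6% and 3.08% of all genes). *Ncf4*, which encodes the p40phox subunit, was at 147, 143 and 185 CPM in libraries 2, 3 and 5 labelled mutant, against 232, 205 and 323 CPM in wild-type libraries 1, 4 and 6 (log2 fold change -0.68, edgeR adjusted p = 0.1496, and 0.0230 with the term). *Rac2*, which encodes its small GTPase in blood cells, was at 259, 331 and 380 CPM, against 528, 459 and 788 CPM in wild-type libraries (-0.87, edgeR adjusted p = 0.138, and 0.0254 with the term). Library 6 was highest for both, as it was for the osteoclast marker *Ctsk*, at 855, 2019 and 3295 CPM against 5743, 4638 and 12109 CPM in wild-type libraries. The log2 fold change of *Ctsk* was -1.87 (edgeR adjusted p = 0.156, and 0.0243 with the term).

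**Figure D4:**
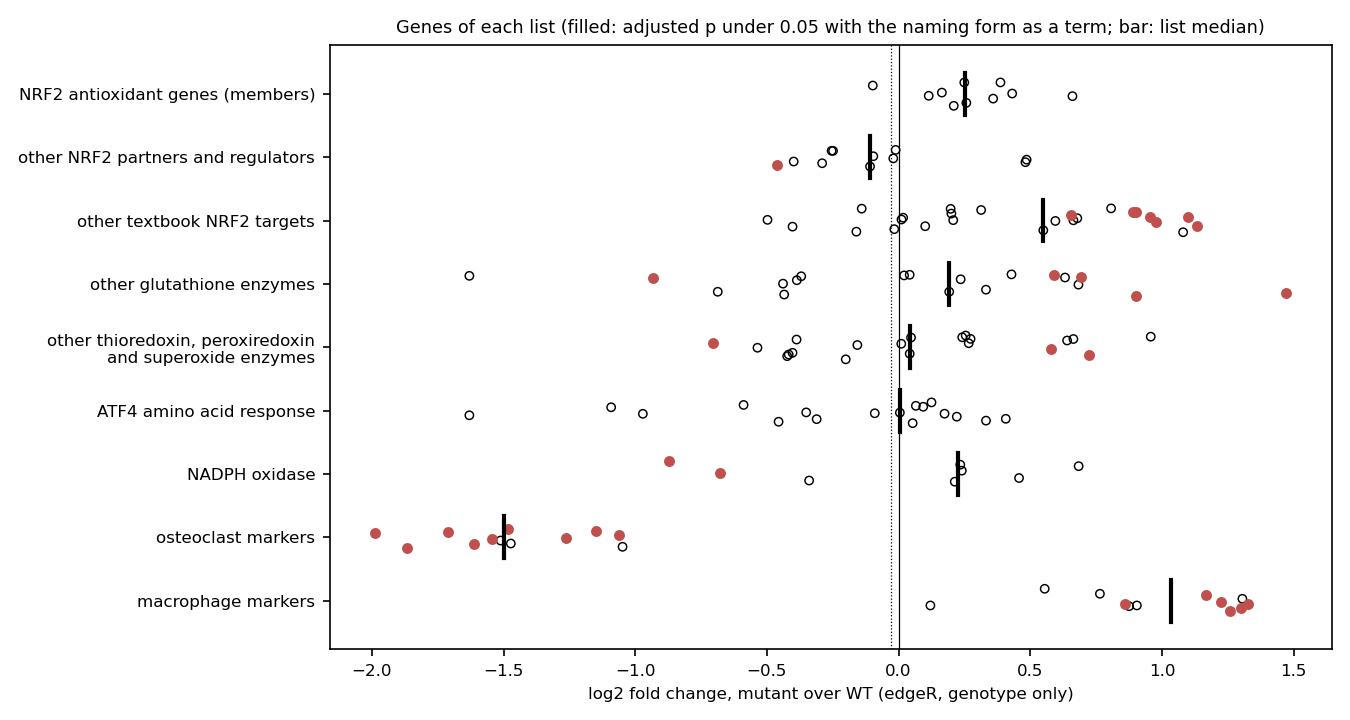
Log2 fold change (libraries labelled mutant over wild-type libraries, edgeR with genotype only) of each tested gene of the 10 antioxidant genes, the further lists and 2 marker lists; vertical bars are list medians, and filled points had an adjusted p under 0.05 with the naming form as a term. The 10 genes hold no filled point and a median of 0.25, the other NRF2 targets hold 7 filled points and a median of 0.55, osteoclast markers lie at a median of -1.50 and macrophage markers at 1.04.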

How the data were processed

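The deposited values are raw read counts for Ensembl genes, made by the authors without normalization. The submitters' processing notes name Bowtie2 2.2.3, SAMtools 0.1.19, TopHat2 2.0.13 and the build mm10. How reads were counted (program, strand, annotation) is not given in the sources used here. Per the labels' protocols, stranded mRNA libraries were read from 1 end over 75 bases. Of 23264 rows, 60 repeats with identical counts were dropped. Columns give the genotype and no replicate number, so each was assigned to its group only; p-values cover only the spread among these 6 libraries, which may be technical. No pair of libraries agreed within sampling noise (the lowest chi-square was 27.7 for each degree of freedom).

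Counts were scaled by TMM and tested with edgeR 4.0.16 (R 4.3.3, quasi-likelihood test, filterByExpr, 14040 genes, Benjamini-Hochberg over all of them, threshold 0.05). The procedure was tested on simulated data in which the added changes were larger than any fold change of the 10 genes. Recovery of differences as small as theirs was not tested. All 10 genes passed the filter. Standard errors come from dividing the log2 fold change by the root of F. DESeq2 1.42.0 was an alternative. Merged exon lengths came from GENCODE M21, of the same build, in which the 10 genes had the deposited start and end. Exons of *Keap1* and *Gclm* overlap those of *Gm16754* (0 to 1 counts) and *Gm17494* (0 to 15 counts) on the other strand, and whether reads were separated by strand is not known. *Gclm* also shares 244 exon bases with *Gm6061*, a pseudogene on the same strand that is absent from the counted genes.

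The genes, lists and tests were chosen with earlier results of these data known. The text names the 10 genes, *Hmox1* and, from each further list, up to 4 genes past the threshold, or past it with the naming form as a term, or otherwise the 2 of highest mean CPM; *Tet2*, *Tet3* and *Ctsk* are given as checks. The 3 genes closest in profile to *Nfe2l2* were also to be named, and a gene picked by these rules is not reported here.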

Additional observations from a re-analysis of the deposited data

How the results depend on the processing

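Of the 10 genes, 0 passed in edgeR under every alternative run there (other scalings, no filter, the naming form as a term, each library left out), higher or lower, and 1, *Prdx1*, passed as higher in DESeq2. With 1 library left out, between 1 and 3 of the 10 had an unadjusted p under 0.05, and 8 to 10 of them lay above 0. The shares of all genes in those fits were not counted. The median log2 fold change of the 10 lay between 0.22 and 0.32 in them. That of all genes lay between -0.055, without library 1, and 0.064, without library 4. 3 of the 10 changed sign when a library was left out. The log2 fold change of *Txnrd1* was 0.077 without library 2 and 0.028 without library 6 (lowest -0.20, without library 5), that of *Srxn1* was -0.040 without library 2 (highest 0.49), and that of *Gsr* was -0.017 without library 4 (highest 0.25). Over all genes, 7 passed as higher and 3 as lower in the main test. There were 42 and 46 with library totals in place of TMM, 46 and 35 with no filter on low counts, 433 and 786 with the naming form as a term, and 622 and 704 in DESeq2; the cause was not tested. Leaving out each library in turn gave 0 to 2 higher and 0 to 1 lower, with fewer samples. Of the 96 further pathway genes tested, 0 passed in edgeR, also with a library left out. With the naming form as a term 13 rose and 5 fell (3.08% and 5.6% of all genes), and DESeq2 called 16 higher and 4 lower (4.84% and 5.48% of all genes); the counts of lower genes are near those shares. No paired analysis was possible because the columns carry none of the replicate numbers in the labels. The biological coefficient of variation (40.9% in the main test and 23.5% with the term) limits the precision of each value at 3 libraries a genotype.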
